A study of Homo sapiens with 8 samples.

Results

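The 10 genes described here serve bile acid synthesis, its feedback control through the farnesoid X receptor (FXR), and bile acid export. They were chosen by symbol for their known roles, with no threshold on measured values, but with earlier results of these data known. The genes are CYP7A1, CYP8B1, CYP27A1, NR1H4, NR0B2, FGF19, FGFR4, SLC51A, SLC51B, and ABCB11. All 10 symbols matched a row among the 60230 genes of the count table, and 9 of the 10 were among the 13404 genes that passed the filter on low counts. The cells were HepG2, a long-established human liver cancer line, and every group, the controls included, used the derivative that overexpresses the drug-metabolizing enzyme CYP3A4. Control cells received 0.2% DMSO. Treated cells received compound 4, 5, or 6, each at its own IC50 concentration, so that the doses differed between compounds. All were harvested the next day. The 3 compounds are phenolic antioxidants used in plastics. Compounds 4 and 6 share a methylene bridge between their rings and differ in a ring substituent, tert-butyl in compound 4 and cyclohexyl in compound 6. Compound 5 has an ethane bridge and more tert-butyl groups. Each group had 2 replicates, 8 samples in all, and the labels number them as day 1 and day 2. Nothing in the labels says that they came from separate cultures beyond this day, so that p-values measure the spread between these samples. HepG2 cells are tumor cells from a single donor and retain only some functions of hepatocytes.

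Bile acids are made from cholesterol in hepatocytes. CYP7A1 starts the classic pathway, CYP8B1 directs it towards cholic acid, and CYP27A1 serves the alternative pathway and side-chain oxidation. Bile acids activate FXR, the nuclear receptor encoded by NR1H4, which induces the corepressor SHP (NR0B2), the exporters, and, mainly in the ileum, the hormone FGF19. FGF19 acts on hepatocytes through FGFR4 with its coreceptor KLB, and both SHP and FGF19 are known to repress CYP7A1.

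Estimated counts per sample summed to between 9472261 and 13308975. A level of 3 counts, taken as the smallest that could be shown, corresponded to between 0.225 and 0.317 CPM (counts per 1000000 of a library's counts), and such floors and the counting intervals given later cover counting error only. The 10 hepatocyte markers were all expressed, and their summed level was between 42800 and 44200 CPM under DMSO, 33200 and 33700 CPM under compound 4, 33200 and 33300 CPM under compound 5, and 33800 and 40400 CPM under compound 6. The part of this drop in the changes reported here was not tested, and in bulk RNA a smaller number of cells of a kind and less RNA per cell cannot be told apart. Of the markers for other cell types, PTPRC and CD3E (immune), COL1A2, DCN, and LUM (fibroblast), KDR and TEK (endothelial), SI and SLC10A2 (enterocyte), and CFTR and SCTR (cholangiocyte) had 0 counts in all samples. Summed over each list, cholangiocyte markers lay between 599 and 763 CPM (4 of 7 at a mean of at least 1 CPM), enterocyte markers between 401 and 527 (3 of 8), fibroblast markers between 10.2 and 22.3 (2 of 7), immune markers between 1810 and 3090 (2 of 6), and endothelial markers between 0.827 and 2.07 (0 of 5). Both compound 5 samples lay below both DMSO samples for 4 of these lists. Fibroblast markers were at 10.2 to 11.1 CPM against at least 18.2 CPM under DMSO, and immune markers at 1810 to 1980 against 2500 to 3090 CPM. Cholangiocyte markers were at 599 to 613 against 722 to 763 CPM, and enterocyte markers at 401 to 426 against 462 to 472 CPM. For compound 4, cholangiocyte markers at 651 to 676 CPM and immune markers at 2150 to 2490 CPM were also below both DMSO samples, as were cholangiocyte markers at 664 to 676 CPM for compound 6. Endothelial markers were above the DMSO samples, at 0.938 to 1.31 CPM, with compound 4 (1.55 to 1.63 CPM) and compound 6 (1.90 to 2.07 CPM). The part of these differences in the results was not tested. In replicate 2 of compound 4, the longest 10% of genes lay at a median of -0.24 and the shortest 10% at 0.21 on the log2 scale relative to the mean over samples, against between -0.11 and 0.15 and between -0.15 and 0.11 in the other 7 samples. The changes of short and long genes are therefore also given after correction for gene length and GC content where this moved a call.

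In DMSO, FGFR4 had the highest level per gene length of the 10 genes, at 80.7 ± 1.29 CPM per kilobase of exon (SD, n = 2). CYP27A1 followed at 69.9 ± 5.38 and NR0B2 at 65.4 ± 3.03 CPM per kilobase (SD, n = 2 each), and the replicates of these neighbours overlapped. SLC51B at 11.3 ± 1.24 and NR1H4 at 10.4 ± 1.77 CPM per kilobase (SD, n = 2 each) overlapped as well. SLC51A stood at 1.82 ± 0.05, CYP8B1 at 0.61 ± 0.13, CYP7A1 at 0.60 ± 0.17, and FGF19 at 0.11 ± 0.04 CPM per kilobase (SD, n = 2 each). The classic pathway enzymes CYP7A1 and CYP8B1 thus lay far below CYP27A1 and did not differ from each other beyond their spread. ABCB11, the bile salt export pump of the canalicular membrane, had 0 counts in all 8 samples, which allows a level of up to between 0.225 and 0.317 CPM depending on the sample. Lengths are the union of exons in GENCODE 29, which overstates the length of genes with several transcript forms such as SLC51A.

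Against DMSO, the edgeR quasi-likelihood test called 4 of the 9 tested genes for compound 4, of which 2 were higher and 2 lower. It called 4 for compound 5, of which 3 were higher and 1 was lower, and 2 for compound 6, both higher. Among all genes tested, 11.9% were called for compound 4, divided into 6.50% higher and 5.42% lower. For compound 5 it was 28.1%, made up of 13.9% higher and 14.2% lower, and for compound 6 4.40%, made up of 2.80% higher and 1.60% lower. Called genes are those with a Benjamini-Hochberg adjusted p under 0.05 over all genes tested. CYP7A1 passed the filter on low counts only through the DMSO samples, where it was high. The filter thus favoured lower values with the compounds, and the calls of CYP7A1 lend no support. The counts without it were 3, 3, and 2 of 8 genes. The median log2 fold change of the 9 genes was 0.00, 0.17, and -0.07 for compounds 4, 5, and 6, beside 0.00, -0.03, and 0.00 over all genes. SLC51B and NR0B2 rose with every compound, SLC51A rose with compound 5, and NR1H4 fell with compound 4. CYP7A1 was called lower with compounds 4 and 5, under the limit that the filter sets. CYP8B1, CYP27A1, FGF19, and FGFR4 were not called with any compound. In the test over the 4 groups together, which called 24.6% of all genes, these 5 genes passed, or 4 of 8 without CYP7A1, with SLC51B having the smallest p (edgeR adjusted p = 8.18e-05).

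**Figure D1:**
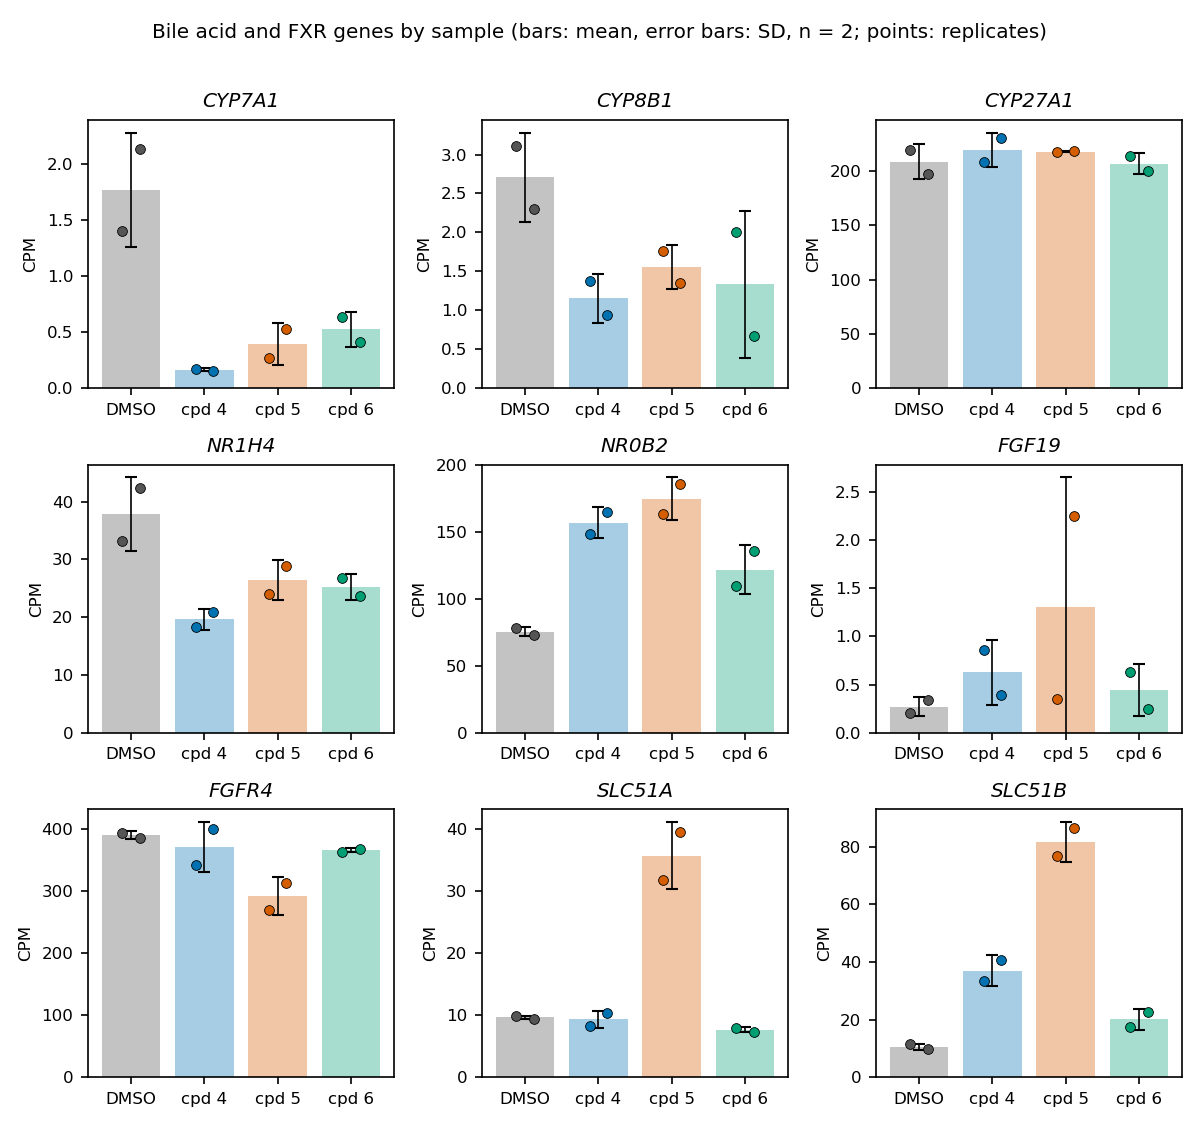
Levels of the 9 detected genes in CPM (vertical axes, linear, from 0) for DMSO and compounds 4, 5, and 6 (cpd 4, cpd 5, cpd 6). Bars are means, error bars SD with n = 2, and points the replicates. Both SLC51B points of every compound lie above both DMSO points, and the error bar of FGF19 with compound 5 reaches below 0 because its replicates were at 0.351 and 2.25 CPM.

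NR1H4 (ENSG00000012504, GRCh38 chromosome 12, 100473708 to 100564413, plus strand) encodes FXR itself. It was measured at 33.2 and 42.3 CPM under DMSO, 18.2 and 20.9 CPM under compound 4, 24.0 and 28.9 CPM under compound 5, and 26.8 and 23.6 CPM under compound 6. All 6 treated samples lay below both DMSO samples, and those of compound 4 were lowest. It fell 1.88-fold with compound 4 (log2 fold change -0.91, SE 0.16, edgeR adjusted p = 0.00508). Without replicate 2 of DMSO, the higher of the control samples, this change was -0.73 and did not pass (edgeR adjusted p = 0.0736). The log2 fold changes of -0.41 with compound 5 (edgeR adjusted p = 0.0718, 95% interval -0.75 to -0.07) and -0.56 with compound 6 (edgeR adjusted p = 0.0697, 95% interval -0.91 to -0.21) did not pass the cutoff. The compound 5 value passed with upper-quartile scaling (edgeR adjusted p = 0.0338), library-size scaling (0.0312), or only the groups compared (0.0447). The compound 6 value passed with no filter (edgeR adjusted p = 0.0104), only the groups compared (0.0493), or without either replicate of compound 4 (0.0402 and 0.044).

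NR0B2 (ENSG00000131910, chromosome 1, 26911489 to 26913966, minus strand) encodes SHP, a nuclear receptor without a DNA-binding domain that represses the promoters of bile acid synthesis genes. Its level was 78.0 and 73.1 CPM under DMSO, 149 and 165 CPM under compound 4, 163 and 186 CPM under compound 5, and 109 and 135 CPM under compound 6. The groups treated with compounds 4 and 5 overlapped each other, and all treated samples were above the controls. The rise was 2.13-fold with compound 4 (log2 fold change 1.09, SE 0.13, edgeR adjusted p = 0.00101), 2.48-fold with compound 5 (1.31, SE 0.13, edgeR adjusted p = 1.55e-04), and 1.65-fold with compound 6 (0.72, SE 0.13, edgeR adjusted p = 0.0159). The call with compound 6 was lost without replicate 1 of DMSO (0.79, edgeR adjusted p = 0.0848), without replicate 2 of DMSO (0.67, edgeR adjusted p = 0.171), and without replicate 2 of compound 6 (0.57, edgeR adjusted p = 0.175). Its level per length was the highest of the 10 genes in each treated group, at 136 ± 10.2, 151 ± 13.8, and 106 ± 15.9 CPM per kilobase (SD, n = 2 each) for compounds 4, 5, and 6.

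Among the synthesis enzymes, CYP7A1 (ENSG00000167910, chromosome 8, 58490178 to 58500236, minus strand), the rate-limiting enzyme of the classic pathway, was near the lower limit of detection. Its estimated counts were 14 and 25 under DMSO, 2 and 2 under compound 4, 3 and 7 under compound 5, and 6 and 5 under compound 6. These counts corresponded to 1.41 and 2.13 CPM under DMSO and to between 0.155 and 0.633 CPM in the 6 treated samples, none of which reached the lower DMSO sample. The log2 fold change was -3.32 with compound 4 (SE 0.63, edgeR adjusted p = 0.00797) and -2.01 with compound 5 (SE 0.54, edgeR adjusted p = 0.0185), while -1.74 with compound 6 did not pass (SE 0.53, edgeR adjusted p = 0.0904). From summed counts, the ratio to DMSO was 0.0908 for compound 4 (exact 95% counting interval 0.0236 to 0.252), 0.225 for compound 5 (0.10 to 0.459), and 0.284 for compound 6 (0.131 to 0.566). Without replicate 2 of DMSO neither call remained (edgeR adjusted p = 0.087 for compound 4 and 0.133 for compound 5), and the compound 5 call was also lost without its replicate 1 (edgeR adjusted p = 0.125). DESeq2 gave no adjusted p for CYP7A1 in these comparisons. Because the filter kept the gene through the DMSO samples alone, these p-values are a description and lend no support beyond the counts.

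CYP8B1 (ENSG00000180432, chromosome 3, 42856005 to 42876165, minus strand), the sterol 12-alpha-hydroxylase, had 31 and 27 counts under DMSO, 16 and 12 under compound 4, 20 and 18 under compound 5, and 19 and 8 under compound 6. The treated samples, at 0.664 to 2.01 CPM, were all below the DMSO samples at 3.11 and 2.30 CPM. No change passed the test, with log2 fold changes of -1.19 (95% interval -2.27 to -0.10, edgeR adjusted p = 0.15), -0.69 (-1.74 to 0.35, edgeR adjusted p = 0.295), and -1.03 (-2.13 to 0.06, edgeR adjusted p = 0.281) for compounds 4, 5, and 6.

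CYP27A1 (ENSG00000135929, chromosome 2, 218781749 to 218815293, plus strand), the mitochondrial sterol 27-hydroxylase, was abundant and varied little. Its values were 220.0 and 197 CPM under DMSO, 209 and 231 CPM under compound 4, 218 and 219 CPM under compound 5, and 214 and 200.2 CPM under compound 6, and the groups overlapped. The log2 fold changes of 0.12, 0.17, and 0.01 for compounds 4, 5, and 6 did not pass (edgeR adjusted p = 0.531, 0.255, and 0.96), and the 95% intervals together ran from -0.22 to 0.41. After correction for gene length and GC content, the compound 5 change was 0.27 and passed (edgeR adjusted p = 0.0378, and 0.0338 with the replicate block).

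FGF19 (ENSG00000162344, chromosome 11, 69698232 to 69704642, minus strand), the hormone of the axis, had 2 and 4 counts under DMSO, 10 and 5 under compound 4, 4 and 30 under compound 5, and 6 and 3 under compound 6. It was low in most samples, and highest in replicate 2 of compound 5, at 2.25 CPM, and replicate 1 of compound 4, at 0.86 CPM. The other replicate of compound 5, at 0.351 CPM, was close to the DMSO samples at 0.201 and 0.341 CPM. The filter on low counts kept FGF19 through replicate 2 of compound 5 and replicate 1 of compound 4. The log2 fold change of 2.34 with compound 5 had an SE of 0.91 and did not pass (edgeR adjusted p = 0.0766, and 0.808 without replicate 2 of compound 5). It passed without replicate 1 of compound 5 (3.11, edgeR adjusted p = 0.0239), with no filter (0.00843), and with only the groups compared (0.0402). The call therefore depended on which replicate of compound 5 was kept and on the setting.

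FGFR4 (ENSG00000160867, chromosome 5, 177086886 to 177098144, plus strand), the receptor for FGF19 in liver, was measured at 394 and 385 CPM under DMSO, 342 and 399 CPM under compound 4, 270.4 and 314 CPM under compound 5, and 363 and 368 CPM under compound 6. Compound 5 gave the lowest values, below both DMSO samples. Its log2 fold change of -0.31 did not pass (SE 0.11, 95% interval -0.56 to -0.06, edgeR adjusted p = 0.0642). With the length and GC correction it was -0.35 and passed (edgeR adjusted p = 0.0157, and 0.0178 with the replicate block). It also passed with upper-quartile scaling (edgeR adjusted p = 0.0268), library-size scaling (0.0183), only the groups compared (0.0369), or without either replicate of compound 4 (0.0306 and 0.0439). For compounds 4 and 6 the changes were -0.03 and -0.07 (edgeR adjusted p = 0.893 and 0.807).

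SLC51A and SLC51B encode the alpha and beta subunits of the organic solute transporter (OST), which exports bile acids across the basolateral membrane and needs both subunits. Their promoters are shown because the genes responded differently although they act as a pair. RefSeq promoters were found for 6 of the 10 genes, and not for CYP7A1, CYP8B1, NR0B2, and FGF19. Each sequence is the 250 bases before the RefSeq start, 5′ to 3′ on the plus strand in GRCh38.p14, chr3:196216284-196216533 for SLC51A and chr15:65045137-65045386 for SLC51B. The FXR heterodimer is known to bind an inverted repeat with a spacer of a single base, AGGTCANTGACCT, which was searched on both strands, and capitals mark a match with at most 2 mismatches over its 12 fixed letters.
SLC51A: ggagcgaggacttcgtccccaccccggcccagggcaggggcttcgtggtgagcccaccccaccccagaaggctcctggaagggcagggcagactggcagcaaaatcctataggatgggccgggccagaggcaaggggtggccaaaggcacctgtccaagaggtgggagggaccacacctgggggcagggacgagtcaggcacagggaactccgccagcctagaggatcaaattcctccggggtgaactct
SLC51B: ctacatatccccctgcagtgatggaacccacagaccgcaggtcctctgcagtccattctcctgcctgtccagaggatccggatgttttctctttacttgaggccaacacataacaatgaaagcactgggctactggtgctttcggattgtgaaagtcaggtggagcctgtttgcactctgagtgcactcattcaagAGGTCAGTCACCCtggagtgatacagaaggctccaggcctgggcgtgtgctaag
The SLC51B sequence held a match with 2 mismatches, 54 to 42 bases before the start, whose first 6 letters AGGTCA were intact. No such match was in the SLC51A window. The window of ABCB11, which had 0 counts in all samples, also held a match with 2 mismatches, 96 to 84 bases before the start. Among 35116 promoters of the same length, 0.945% held a match with at most 2 mismatches, 0 of them held an exact match, and 12.1% held AGGTCA on either strand. The closest stretch in the SLC51A window had 4 mismatches. Sites with more than 2 mismatches or outside the 250 bases are missed, so a window without a match may still hold a site. Matched stretches were not compared with known FXR sites. A match is a description of the letters, and binding was not measured.

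SLC51B (ENSG00000186198, chromosome 15, 65045370 to 65053396, plus strand) rose most among the 10 genes. Its level was 11.5 and 9.81 CPM under DMSO, 33.3 and 40.8 CPM under compound 4, 76.9 and 86.6 CPM under compound 5, and 17.6 and 22.8 CPM under compound 6. The 4 groups did not overlap, with the order DMSO, compound 6, compound 4, and compound 5. The rise was 3.59-fold with compound 4 (log2 fold change 1.85, SE 0.17, edgeR adjusted p = 3.36e-04), 8.28-fold with compound 5 (3.05, SE 0.17, edgeR adjusted p = 1.98e-05), and 1.95-fold with compound 6 (0.97, SE 0.18, edgeR adjusted p = 0.0171). The compound 6 call was lost without replicate 1 of DMSO (1.09, edgeR adjusted p = 0.0738), replicate 2 of DMSO (0.84, edgeR adjusted p = 0.184), or replicate 2 of compound 6 (0.77, edgeR adjusted p = 0.209). SLC51B has only 940 bases of exon, and the length and GC correction gave 1.80, 3.30, and 1.05 for compounds 4, 5, and 6.

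SLC51A (ENSG00000163959, chromosome 3, 196211487 to 196243178, plus strand) was measured at 9.84 and 9.47 CPM under DMSO, 8.35 and 10.3 CPM under compound 4, 31.8 and 39.5 CPM under compound 5, and 8.02 and 7.38 CPM under compound 6. Compound 5 stood apart from the other groups. The rise with compound 5 was 3.98-fold (log2 fold change 1.99, SE 0.17, edgeR adjusted p = 7.52e-05). With compound 4 the log2 fold change was 0.00 (95% interval -0.40 to 0.39, edgeR adjusted p = 0.993), and with compound 6 it was -0.30 (-0.71 to 0.11, edgeR adjusted p = 0.402). The ratio of SLC51B to SLC51A, both per kilobase of exon, was 6.55 and 5.83 under DMSO, 22.5 and 22.2 under compound 4, 13.6 and 12.3 under compound 5, and 12.4 and 17.4 under compound 6. In every treated sample the beta subunit was more abundant relative to the alpha subunit than in DMSO, and most so with compound 4.

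**Figure D2:**
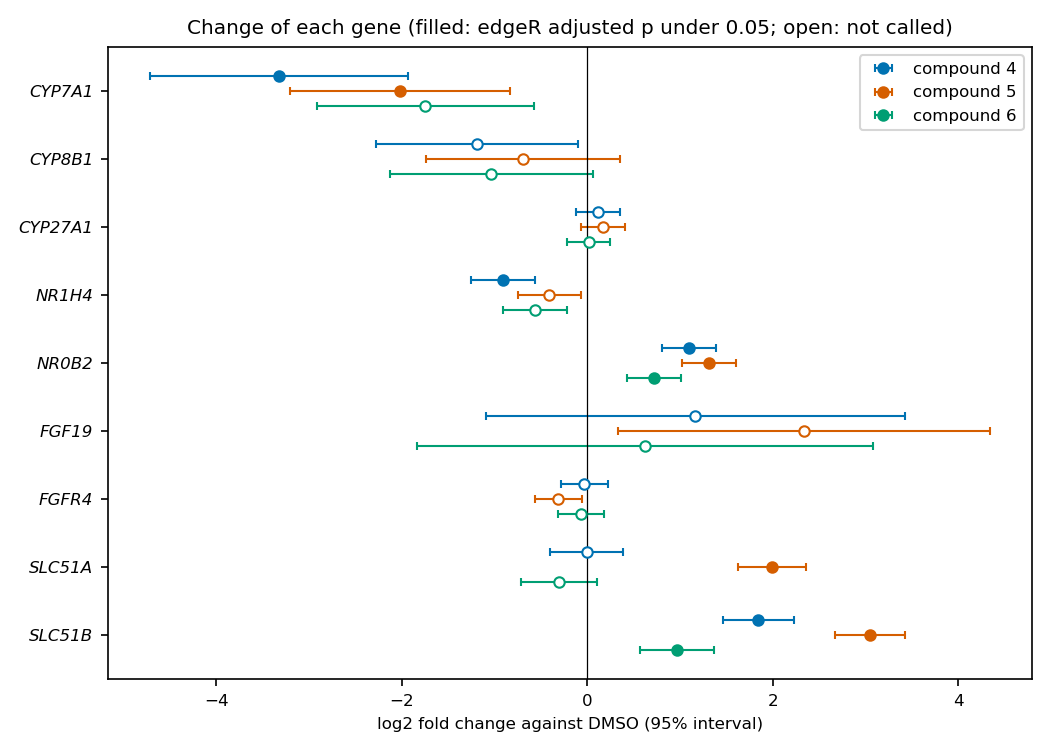
Log2 fold change against DMSO (horizontal axis) of the 9 tested genes with compounds 4, 5, and 6, from the edgeR fit over all genes. Bars are 95% intervals, filled points were called at an adjusted p under 0.05, and open points were not. SLC51B and NR0B2 are filled to the right of 0 for every compound (CYP7A1 was kept by the filter through DMSO alone), and SLC51A for compound 5 only among these 3 comparisons.

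Compared directly, each at its own IC50 and so at different doses, compound 5 differed from compound 4 in 2 of the 9 genes and from compound 6 in 3, against 13.9% and 9.91% of all genes tested. Compounds 4 and 6 differed in 0 of the 9, where edgeR called 0.0448% of all genes, NR0B2 and SLC51B had an unadjusted p under 0.05 (0.0162 and 2.33e-04), and DESeq2 called SLC51B. SLC51B was higher with compound 5 than with compound 4 (log2 difference 1.20, SE 0.15, edgeR adjusted p = 0.00455) and than with compound 6 (2.08, SE 0.16, edgeR adjusted p = 1.96e-04). SLC51A was higher with compound 5 than with compound 4 by 2.00 on the log2 scale (SE 0.16, edgeR adjusted p = 8.03e-04) and than with compound 6 by 2.29 (SE 0.17, edgeR adjusted p = 1.96e-04). NR0B2 was higher with compound 5 than with compound 6 (0.59, SE 0.13, edgeR adjusted p = 0.0196), a call that was lost without either replicate of compound 5 (edgeR adjusted p = 0.0766 and 0.143) or without replicate 1 of compound 6 (0.143). Between compounds 5 and 4, NR0B2 differed by 0.22 (95% interval -0.07 to 0.50, edgeR adjusted p = 0.263), but by 0.55 after the length and GC correction (edgeR adjusted p = 0.0143, and 0.0146 with the replicate block). NR1H4 was higher with compound 5 than with compound 4 by 0.50 and did not pass (edgeR adjusted p = 0.059), whereas it passed after that correction (edgeR adjusted p = 0.0448, and 0.0334 with the replicate block), with RLE scaling (0.0494), with no filter (0.0124), and with at least 10 counts in every sample (0.0465). The FGFR4 difference between compounds 5 and 4 was -0.28 (95% interval -0.53 to -0.03, edgeR adjusted p = 0.121). Without replicate 1 of compound 4 it was -0.39. For the methylene-bridged pair, compounds 4 and 6, the difference in SLC51B was 0.88 (95% interval 0.52 to 1.24, edgeR adjusted p = 0.142, DESeq2 adjusted p = 0.00324). It passed in edgeR with no filter (adjusted p = 7.26e-06) or without replicate 1 of compound 4 (1.02, adjusted p = 0.0285). The difference in NR1H4 was -0.35 (-0.70 to 0.01, edgeR adjusted p = 0.519), and that in NR0B2 was 0.37 (0.08 to 0.66, edgeR adjusted p = 0.424).

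Over the 8 samples, the genes whose log2 CPM followed SLC51B most closely among all genes tested were the chemokine gene CCL20 (Pearson r = 0.997), OSGIN1, an oxidative stress-induced growth inhibitor (0.993), and the Mediator subunit gene MED8 (0.991). These values describe 4 groups of 2 samples that share the same treatments. CCL20 was at 146 and 123 CPM under DMSO, 349 and 388 CPM under compound 4, 719.6 and 671 CPM under compound 5, and 197 and 260.0 CPM under compound 6. Its order of groups was that of SLC51B.

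The 5 related lists that follow hold 99 entries for 92 genes, because 7 genes stand in 2 lists and are counted in each. Beside the counts below, 11.9%, 28.1%, and 4.40% of all genes tested were called for compounds 4, 5, and 6. Higher calls made up 6.50%, 13.9%, and 2.80%, and lower calls 5.42%, 14.2%, and 1.60%. The median log2 fold change over all genes was 0.00, -0.03, and 0.00. No count is read as a response of its list. Of 17 other genes for bile acid synthesis and conjugation, 13 were tested, of which 3 were called for compound 4, with 1 higher and 2 lower, 7 for compound 5, with 1 higher and 6 lower, and 0 for compound 6. With compound 6, 3 of the 13 had an unadjusted p under 0.05, and with the replicate block AMACR was called (log2 fold change -0.55, edgeR adjusted p = 0.0452), as it was with no filter (0.0121) or after the length and GC correction (0.0429). It was also called without either replicate of compound 4 (edgeR adjusted p = 0.0408 and 0.0427) or replicate 1 of compound 6 (0.0312). The median log2 fold change was -0.25, -0.36, and -0.17 for compounds 4, 5, and 6. AKR1D1, the reductase that forms the bile acid A/B ring junction, changed most, from 6.03 and 6.14 CPM under DMSO to 1.98 and 1.71 CPM under compound 4 and 1.40 and 2.03 CPM under compound 5, with 4.43 and 3.24 CPM under compound 6. It fell 3.20-fold with compound 4 (log2 fold change -1.68, SE 0.30, edgeR adjusted p = 0.00544, and 0.0531 without replicate 2 of DMSO) and 3.26-fold with compound 5 (-1.70, SE 0.30, edgeR adjusted p = 0.00246). The racemase gene AMACR fell by 0.98 with compound 5 (edgeR adjusted p = 0.00114) and by 0.59 with compound 4 (edgeR adjusted p = 0.0257). Of its 31-mers, 61.96% also occur in other genes, so that its reads could be assigned either way. Its call with compound 4 was lost without replicate 1 of DMSO (edgeR adjusted p = 0.159), replicate 2 of DMSO (0.0893), or replicate 2 of compound 4 (0.0785). With compound 5, HSD3B7 (sterol ring oxidation), the bile acid ligase SLC27A5, and the peroxisomal transporter ABCD3 fell by 0.75, 0.73, and 0.52 on the log2 scale (edgeR adjusted p = 0.00314, 0.0239, and 0.0052). The SLC27A5 call was lost without replicate 1 of DMSO (edgeR adjusted p = 0.161) or either replicate of compound 5 (0.0983 and 0.114), and that of ABCD3 without replicate 2 of compound 5 (0.0574). With compound 4, ABCD3 was at -0.36 (edgeR adjusted p = 0.052) and passed in DESeq2 (0.041), with upper-quartile scaling (0.0444), library-size scaling (0.0366), at least 10 counts in every sample (0.0451), or without replicate 1 of compound 4 (0.0486). With compound 6 it was at -0.34 (edgeR adjusted p = 0.0958) and passed after the length and GC correction (0.0439, and 0.0426 with the block). CYP39A1, an oxysterol hydroxylase, rose by 0.58 with compound 5 (edgeR adjusted p = 0.0171), a call lost in DESeq2 (adjusted p = 0.0513), without replicate 2 of DMSO (edgeR adjusted p = 0.122), or without replicate 1 of compound 5 (0.0939). CYP7B1, CYP46A1, and CH25H had 0 counts in all samples.

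Of 15 other transporters of bile acids and biliary lipids, 12 were tested, with 2 called higher for compound 4, 4 higher and 1 lower for compound 5, and 2 higher for compound 6 (medians 0.17, 0.29, and 0.23). Among all genes tested, 11.9%, 28.1%, and 4.40% were called. The uptake carriers SLC10A1 and SLC10A2 had 0 counts in all samples. ABCC2, the canalicular export pump for conjugated anions, was measured at 586 and 658 CPM under DMSO, 1116 and 958 CPM under compound 4, 1316 and 1324 CPM under compound 5, and 958 and 1181 CPM under compound 6. It rose by 0.78, 1.19, and 0.81 on the log2 scale (edgeR adjusted p = 0.00352, 2.03e-04, and 0.00879), the last call being lost without either DMSO replicate (0.0824 and 0.0878) or replicate 2 of compound 6 (0.10). ABCC3, a basolateral exporter, was at 71.7 and 69.6 CPM under DMSO, 164 and 166 CPM under compound 4, 80.3 and 82.8 CPM under compound 5, and 141 and 186 CPM under compound 6. It rose by 1.26 with compound 4 (SE 0.13, edgeR adjusted p = 4.42e-04) and 1.24 with compound 6 (SE 0.13, edgeR adjusted p = 0.00425, and 0.0818 without replicate 2 of DMSO), while 0.31 with compound 5 did not pass (edgeR adjusted p = 0.0987). The compound 5 value passed with only the groups compared (0.34, edgeR adjusted p = 0.0115) or without either replicate of compound 6 (0.0305 each). The direct tests gave -0.95 between compounds 5 and 4 (edgeR adjusted p = 0.00489) and -0.93 between compounds 5 and 6 (edgeR adjusted p = 0.00386), so that the order of the compounds for ABCC3 was not that for SLC51B. With compound 5, the uptake carrier SLCO1B3 rose by 1.46 (edgeR adjusted p = 5.95e-04, 53.36% of its 31-mers shared with other genes), ABCC4 by 0.73 (edgeR adjusted p = 0.00511), and ABCB1 by 0.67 (edgeR adjusted p = 0.00598), and SLCO2B1 fell by 1.02 (edgeR adjusted p = 2.87e-04). With compound 6, SLCO2B1 (-0.46, edgeR adjusted p = 0.051) and ABCC4 (0.47, edgeR adjusted p = 0.102) did not pass, but both passed after the length and GC correction (edgeR adjusted p = 0.0249 and 0.0456) and with no filter (0.0391 and 0.0362). SLCO2B1 also passed with library-size scaling (0.0444) or at least 10 counts in every sample (0.0496), and ABCC4 passed with only the groups compared (0.0456). Without either replicate of compound 4 in turn both passed (edgeR adjusted p = 0.0225 to 0.0365), and SLCO2B1 also without replicate 1 of compound 6 (0.0463). The ABCB1 call was lost without replicate 1 of DMSO (edgeR adjusted p = 0.0509) or replicate 1 of compound 5 (0.0578).

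Of 29 receptors, partners, and coregulators of the FXR and FGF19 axis, 23 were tested, with 2 called for compound 4 (1 higher and 1 lower), 5 for compound 5 (4 higher and 1 lower), and 1 lower for compound 6 (medians 0.02, 0.11, and 0.06). The called shares over all genes tested were 11.9%, 28.1%, and 4.40%. KLB, which encodes the beta-klotho coreceptor that FGF19 needs at FGFR4, fell with every compound. It was measured at 81.8 and 84.4 CPM under DMSO, 40.4 and 34.97 CPM under compound 4, 28.5 and 27.1 CPM under compound 5, and 53.6 and 37.5 CPM under compound 6, and no treated sample reached the DMSO samples. The decrease was 2.15-fold with compound 4 (log2 fold change -1.10, SE 0.15, edgeR adjusted p = 0.00177), 2.78-fold with compound 5 (-1.48, SE 0.16, edgeR adjusted p = 2.01e-04), and 1.80-fold with compound 6 (-0.85, SE 0.15, edgeR adjusted p = 0.0154). The compound 6 call was lost without replicate 1 of DMSO (-0.86, edgeR adjusted p = 0.088), replicate 2 of DMSO (-0.83, edgeR adjusted p = 0.143), or replicate 2 of compound 6 (-0.60, edgeR adjusted p = 0.143). MAFG, a small Maf protein gene that represses bile acid synthesis genes, rose by 0.73 with compound 4 (edgeR adjusted p = 0.0242) and 1.31 with compound 5 (edgeR adjusted p = 6.83e-04), and its value with compound 6 was 0.50 (edgeR adjusted p = 0.149, but 0.00544 with no filter, 0.0191 without replicate 1 of compound 6, and 0.0467 with the block and the length and GC correction). The MAFG call with compound 4 was lost without replicate 1 of DMSO (edgeR adjusted p = 0.14), replicate 2 of DMSO (0.123), or replicate 2 of compound 4 (0.0908). With compound 5, the coactivator gene PPARGC1A rose by 0.89 (edgeR adjusted p = 0.00183) and the deacetylase gene SIRT1 by 0.52 (edgeR adjusted p = 0.0368). Without replicate 2 of compound 4, PPARGC1A also passed with compound 4 (0.51, edgeR adjusted p = 0.0467, against 0.30 and 0.235 with all samples). The SIRT1 call was lost with library-size scaling (edgeR adjusted p = 0.0791), upper-quartile scaling (0.0629), without replicate 1 or 2 of DMSO (0.228 and 0.0513), or without replicate 2 of compound 5 (0.232). The FXR partner RXRA was not called with any compound (log2 fold changes 0.01, -0.06, and -0.24), and neither was HNF4A (0.08, -0.16, and 0.02).

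Of 27 genes listed as FXR targets in liver cells, among them the 7 that also stand in another list (ABCB4, BAAT, NR5A2, SLC27A5, SLCO1B3, SULT2A1, and UGT2B4), 26 were tested, with 5 higher and 3 lower for compound 4, 9 higher and 2 lower for compound 5, and 5 higher and 1 lower for compound 6 (medians 0.10, 0.25, and -0.02). Beside these stand 11.9%, 28.1%, and 4.40% called among all genes tested. KNG1, the kininogen gene, had 3 counts in each DMSO sample and 58 and 93 with compound 5, or 0.301 and 0.256 CPM against 5.09 and 6.99 CPM. From summed counts it was 22.1-fold higher with compound 5 (exact 95% counting interval 9.91 to 61.1), whereas the log2 fold changes of 0.43 with compound 4 and -0.51 with compound 6 did not pass (edgeR adjusted p = 0.74 and 0.793). KNG1 passed the filter on low counts only through the compound 5 samples, where it was high. The filter thus favoured the call of KNG1, which lends no support. Without it 8 of 25 FXR targets were higher with compound 5. APOA5, a regulator of triglyceride-rich lipoproteins, fell from 88.7 and 80.5 CPM under DMSO to 34.6 and 44.1 CPM under compound 4, 17.0 and 21.7 CPM under compound 5, and 53.8 and 32.8 CPM under compound 6. The log2 fold changes were -1.06, -2.02, and -0.95 for compounds 4, 5, and 6 (edgeR adjusted p = 0.00945, 2.32e-04, and 0.0335). The compound 6 value did not pass with the replicate block (edgeR adjusted p = 0.051), nor did it without replicate 1 or 2 of DMSO (0.182 and 0.159), replicate 1 of compound 5 (0.0526), or replicate 2 of compound 6 (0.299). The compound 4 call was lost without either DMSO replicate (0.0658 and 0.0567). The lipoprotein receptor gene VLDLR rose by 1.33 with compound 5 and 1.06 with compound 6 (edgeR adjusted p = 8.18e-04 and 0.0155), and its value with compound 4 was 0.34 (edgeR adjusted p = 0.307). The aldo-keto reductase gene AKR1B10 (30.7% of its 31-mers shared) rose by 1.09, 1.20, and 0.63 with compounds 4, 5, and 6 (edgeR adjusted p = 6.62e-04, 1.57e-04, and 0.0189), and the adhesion molecule gene ICAM1 by 0.70, 1.14, and 0.63 (edgeR adjusted p = 0.00256, 1.09e-04, and 0.0121). For VLDLR, AKR1B10, and ICAM1, the compound 6 calls were lost without replicate 1 of DMSO (edgeR adjusted p = 0.111, 0.0687, and 0.0541), replicate 2 of DMSO (0.142, 0.19, and 0.153), or replicate 2 of compound 6 (0.15, 0.15, and 0.122), and the compound 4 call of ICAM1 without replicate 2 of DMSO (0.0515).

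The last list held 11 detoxification genes, mainly for enzymes that hydroxylate, sulfate, or glucuronidate bile acids. Of these, 9 were tested, with 2 higher for compound 4, 3 higher and 1 lower for compound 5, and 1 higher for compound 6 (medians 0.47, 0.48, and -0.18). Over all genes tested, 11.9%, 28.1%, and 4.40% were called. The lower gene was GSTA1 (named after its values were seen), a glutathione S-transferase gene, whose enzyme does not carry out those reactions. GSTA1 reached the filter level only in the DMSO samples, at 1.31 and 1.96 CPM, and was between 0.0877 and 0.699 CPM in the treated samples. Without it and UGT1A3, which reached that level only with compound 4, 7 genes were tested and the counts with compound 5 were 3 higher and 0 lower. CYP3A5 was measured at 1.61 and 1.54 CPM under DMSO, 13.6 and 11.1 CPM under compound 4, 4.30 and 2.63 CPM under compound 5, and 4.54 and 3.73 CPM under compound 6. It rose 8.03-fold with compound 4 (log2 fold change 3.01, SE 0.29, edgeR adjusted p = 3.36e-04), 2.34-fold with compound 5 (edgeR adjusted p = 0.0167), and 2.66-fold with compound 6 (edgeR adjusted p = 0.0355). Its call with compound 5 was lost without either DMSO replicate (edgeR adjusted p = 0.0755 and 0.0841) or replicate 1 of compound 5 (0.123), and that with compound 6 without any of the DMSO and compound 6 samples (0.0746 to 0.218). CYP3A4, the overexpressed enzyme, which also hydroxylates bile acids, was at 202 and 214 CPM under DMSO, 289 and 215 CPM under compound 4, 355 and 403 CPM under compound 5, and 173 and 172 CPM under compound 6. It rose 1.96-fold with compound 5 (log2 fold change 0.97, SE 0.14, edgeR adjusted p = 7.24e-04), and the changes of 0.31 with compound 4 and -0.25 with compound 6 did not pass (edgeR adjusted p = 0.162 and 0.344). Without replicate 2 of compound 4, the compound 4 value of CYP3A4 was 0.52 and passed (edgeR adjusted p = 0.0163). UGT2B4, which glucuronidates bile acids, rose 1.95-fold with compound 5 (log2 fold change 0.97, edgeR adjusted p = 0.00106). The UGT1A1 value of 1.49 with compound 4 was at the threshold (edgeR adjusted p = 0.0487) and was lost when any sample but replicate 1 of DMSO was left out (0.057 to 0.278), with RLE scaling (0.0502), with library-size scaling (0.0522), or with only the groups compared (0.0761). With compound 6, UGT1A1 was at 0.96 (edgeR adjusted p = 0.273) and passed with no filter (0.0481). Of its 31-mers, 51.34% occur in other genes.

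**Figure D3:**
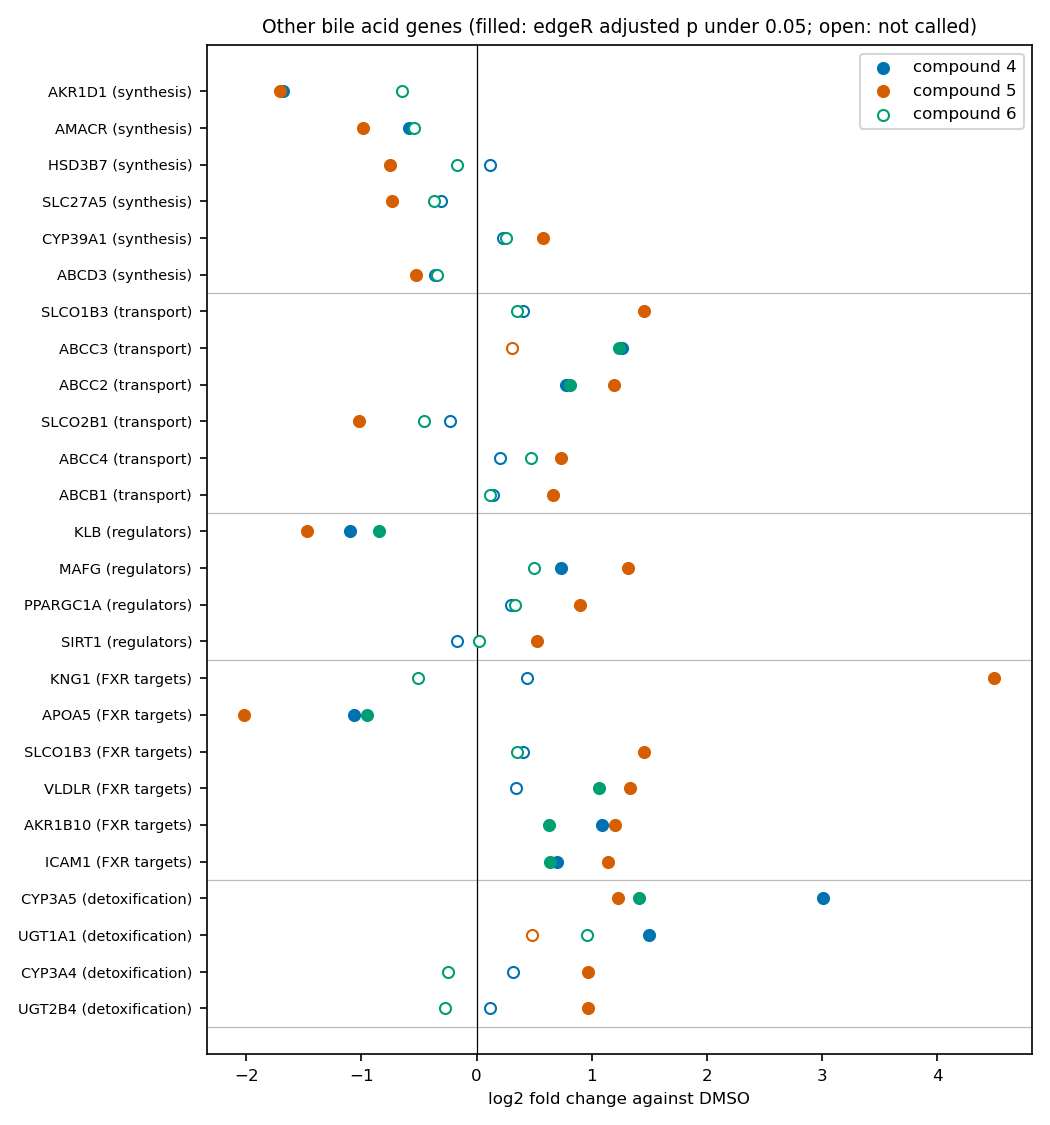
Log2 fold change against DMSO (horizontal axis) of the genes named from the 5 related lists, grouped by list, for compounds 4, 5, and 6. Filled points were called by edgeR at an adjusted p under 0.05, and open points were not. KLB and APOA5 are filled to the left of 0 and ABCC2, AKR1B10, ICAM1, and CYP3A5 to the right for every compound, and KNG1 lies at 4.50 with compound 5.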

How the data were processed

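RNA of 8 samples was sequenced from strand-specific mRNA libraries (NEBNext Ultra II Directional). The authors quantified reads with Salmon 1.5.0 on a GENCODE transcriptome of GRCh38, summed them to genes with tximeta, and deposited estimated counts (expected counts), as whole numbers without scaling for depth. The column names mark replicate 1 of compounds 4 and 5 as merged. Estimated counts divide reads between similar transcripts, and 31-mers shared with other genes were counted in GENCODE 29 transcripts.

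The members and lists were chosen with earlier results of these data known. Genes kept by filterByExpr (at least 0.857 CPM in at least 2 samples) were fitted in R 4.3.3 with edgeR 4.0.16, TMM scaling, and a quasi-likelihood model of the 4 groups over all 8 samples, and standard errors came from the F statistic. The procedure was tested on simulated data. An exact permutation test of 2 against 2 samples has 0.333 as its smallest two-sided p, so none was run. CPM in the text are scaled to the library total.

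Named genes are all 10 members, the up to 6 genes of each list with the largest change among those called with a mean of at least 1 CPM, CYP3A4, and the 3 genes most like the member with the smallest p over the 4 groups. A gene that the rule selects is not reported here. RXRA, HNF4A, genes at 0 counts, and marker genes were named outside this rule. The pairing comes from the day in the labels, which is also the replicate number, although same-numbered deviations from the group means correlated at only -0.08 to 0.16. Replicates differed by more than counting noise (chi-square per degree of freedom 5.67 to 17.96). Alternatives were DESeq2 1.42.0, RLE, upper-quartile, or library-size scaling, no filter, at least 10 counts in every sample, a replicate block, only the groups compared, a cutoff of 0.01, and leaving out each sample. A loess correction for exon length and GC content, alone and with the block, was chosen after seeing the data. Sequences are from RefSeq, GRCh38.p14.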

Additional observations from a re-analysis of the deposited data

How the results depend on the processing

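No change of direction past the threshold occurred under the alternatives run. With the replicate block, which pairs samples by day, the calls of AMACR and APOA5 given above changed and no other call of a named gene did, and 1549, 3676, and 499 of all genes were called for compounds 4, 5, and 6 against DMSO, beside 1598, 3763, and 590 without it. A cutoff of 0.01 left 591, 1809, and 92 of all genes for compounds 4, 5, and 6, 279 between compounds 5 and 4, 282 between compounds 5 and 6, and 1 between compounds 4 and 6. At that cutoff 0 of the members passed for compound 6 and 3 in the test over 4 groups, and 4 synthesis genes, 3 regulators, 9 FXR targets, and 3 detoxification genes passed with any compound. Without a filter on low counts, 1425 genes were called for compound 6, 2096 between compounds 5 and 6, and 288 between compounds 4 and 6, with 1 member. With only the groups compared, 7 members passed for compound 5, where 5049 of all genes did, 8 regulators with any compound, 869 genes between compounds 5 and 4, and 2 between compounds 4 and 6. DESeq2 called 72 genes between compounds 4 and 6, with 1 member. The length and GC correction gave 1000 genes for compound 6, 11 between compounds 4 and 6, and 4 members between compounds 5 and 4, the same numbers with the block added, and with it 2023 between compounds 5 and 6.

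Leaving out each sample in turn gave 335 to 1703 genes for compound 4, 1680 to 4519 for compound 5, and 1 to 1096 for compound 6. For compound 6 the count was 90 without replicate 1 of DMSO, 1 without replicate 2 of DMSO, and 49 without replicate 2 of compound 6, so that its calls rest on these samples. Between compounds 5 and 4 it was 111 to 2709, between 5 and 6 143 to 1875, and between 4 and 6 0 to 117. Members called ranged from 2 to 4 for compound 4, 3 to 5 for compound 5, 0 to 3 for compound 6, 2 to 3 in both direct tests of compound 5, 0 to 1 between compounds 4 and 6, and 3 to 5 in the test over 4 groups. List genes called with any compound ranged from 5 to 9 for synthesis, 5 to 7 for transport, 3 to 7 for regulators, 10 to 16 for FXR targets, and 3 to 5 for detoxification. With 1 sample left in a group, that sample was assumed to vary like the other groups. CYP7A1 and FGF19 were limited by depth, and the filter of at least 10 counts in every sample gave no value for either.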
